A study of Homo sapiens with 12 samples.

Results

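The genes described here are 10 established targets of p53: MDM2, CDKN1A, GADD45A, BTG2, BBC3, BAX, FAS, SESN1, TP53INP1 and ZMAT3. They were taken by symbol from the 60710 genes of the count table. Each symbol matched 1 row, and all 10 passed the filter on low counts that left 16366 genes for testing. The question put to them was whether HPPE, zinc protoporphyrin or tin protoporphyrin changed the p53 program of SH-SY5Y cells within 5 h.

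SH-SY5Y is a human neuroblastoma line and a subclone of the SK-N-SH line. All 12 libraries are of this 1 line and fall into 4 groups of 3. Every well held 2 mL of medium and received 10 µL of DMSO. In the control group this was the solvent alone, and in the other groups it brought HPPE, zinc protoporphyrin (ZnPP) or tin protoporphyrin (SnPP) to 5 µM. ZnPP and SnPP carry the same porphyrin ring with a different metal, and the labels give HPPE only by that name. The labels do not say whether the 3 libraries of a group came from separate cultures, so the p-values measure the spread between these libraries, which may be technical. None of the 12 libraries was treated with a DNA-damaging agent or an MDM2 inhibitor, so no p53 response of these cells was measured beside the compounds.

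p53 is a transcription factor that is held at a low level by MDM2, a ubiquitin ligase that marks it for degradation. After DNA damage and some other stresses p53 escapes this control and binds a pair of adjacent decamers near its target genes. The targets then stop the cell cycle, start cell death, or dampen oxidative and metabolic stress, and MDM2, itself a target, closes a feedback loop. MDM2 and CDKN1A are the customary readouts of p53 activity.

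RefSeq promoter windows (GRCh38.p14), each reaching from 250 bases before an annotated start to 50 after it, were held for 8 of the 10 genes. The 250 bases before the start were searched for the p53 element, 20 bases made of 2 adjacent decamers. Up to 3 mismatches to the consensus were allowed, with the CNNG at the centre of each decamer kept. The consensus reads the same on both strands, so 1 search covers both, and no other motif was searched. The element was found in windows of MDM2, SESN1 and FAS, or 4 of the 16 windows of these 8 genes, against 0.914% of all 35116 windows. These stretches are shown because they place the element next to genes whose values follow, with the element in capitals and all other bases in lower case, 5′ to 3′ on the strand of the gene.
MDM2 (chr12:68808767-68809001, plus strand): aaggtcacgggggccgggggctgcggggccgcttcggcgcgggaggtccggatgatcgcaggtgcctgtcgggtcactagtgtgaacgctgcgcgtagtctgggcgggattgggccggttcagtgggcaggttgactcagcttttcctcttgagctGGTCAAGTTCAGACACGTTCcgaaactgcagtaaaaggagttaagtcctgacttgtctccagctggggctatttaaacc
SESN1 (chr6:109008989-109009238, minus strand): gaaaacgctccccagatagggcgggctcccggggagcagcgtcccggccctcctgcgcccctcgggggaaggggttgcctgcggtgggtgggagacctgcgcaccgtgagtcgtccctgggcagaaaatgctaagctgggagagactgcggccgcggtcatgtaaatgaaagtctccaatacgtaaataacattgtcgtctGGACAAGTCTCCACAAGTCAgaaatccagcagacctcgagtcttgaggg
FAS (chr10:88991304-88991333, plus strand): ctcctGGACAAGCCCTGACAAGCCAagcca
The MDM2 element had 2 mismatches and began 94 bases before the start, and the stretch lies inside the annotated gene but outside its annotated exons. In SESN1 the element had 3 mismatches, began 49 bases before the start, and also lies inside the gene and outside its exons. The FAS element had 2 mismatches and began 122 bases before the start, where an exon of FAS overlaps an exon of ACTA2 on the opposite strand. A match describes the letters only, and a window without one says nothing of elements elsewhere. None of these 3 genes passed the test in any of the 6 comparisons below.

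Total counts per library ran from 1337028 to 9145399, with DMSO replicate 3 (1514595) and ZnPP replicate 1 (1337028) the shallowest. HPPE replicates 2 and 3 were the most alike of all library pairs within a group, with a chi-square per degree of freedom of 1.11, where the next lowest pair was at 1.49 and the highest at 17.33. Libraries also differed by a trend on transcript length. The Spearman correlation of a library's deviation with length, across 10952 genes that are not independent, ran from -0.54 to 0.57. It was -0.10, -0.47 and -0.45 in the HPPE libraries and 0.22, 0.38 and 0.57 in the ZnPP libraries, and took both signs in DMSO (0.44, 0.19 and -0.46) and SnPP (-0.54, 0.52 and -0.18). Of 8 markers of noradrenergic neuroblastoma, 7 were tested, and all 8 summed to 2153 to 2816 CPM (counts scaled to a library of 1000000 reads). TH, which makes the precursor of noradrenaline, had at most 2 counts in any library. Markers of epithelial, blood, endothelial and liver cells summed to at most 2.12 CPM. The 8 markers of the mesenchymal state of neuroblastoma summed to 752.3 to 847.4 CPM in DMSO and 918.5 to 942.0 CPM with HPPE. They summed to 844.6 to 950.2 CPM with ZnPP and 971.0 to 1009 CPM with SnPP. The sum lay above the DMSO range with HPPE and SnPP and overlapped it with ZnPP, and it was not tested. Of the 7 tested, SNAI2, CD44 and WWTR1 rose with HPPE and CD44 alone with the other compounds. Over all genes 2.57% were called higher with HPPE, 1.84% with ZnPP and 1.9% with SnPP. PRRX1, the marker not tested, had at most 1 count. The part of these markers in the results below was not tested, and in bulk libraries fewer cells of a type and less RNA per cell cannot be told apart.

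Against DMSO, HPPE raised GADD45A and lowered TP53INP1, and the other 8 genes did not pass the test (edgeR quasi-likelihood test, Benjamini-Hochberg adjustment over 16366 genes, threshold 0.05). In all genes tested, 4.04% were called in this comparison, 2.57% higher and 1.47% lower. With ZnPP and with SnPP, 0 of the 10 genes were called, where the share over all genes was 2.25% and 2.28%. By direction these shares were 1.84% higher and 0.415% lower with ZnPP, and 1.9% higher and 0.379% lower with SnPP. At an unadjusted p under 0.05 the counts were 4 with HPPE, 2 with ZnPP and 1 with SnPP, where all genes gave 17.7%, 18.6% and 14.7%, and DESeq2 called 2, 0 and 0. The 3 libraries of a compound and the 3 of DMSO did not overlap in 3, 3 and 1 of the 10 genes, against 21.4%, 22% and 17.9% of all genes. The median log2 fold change of the 10 genes was 0.004 with HPPE, -0.09 with ZnPP and 0.03 with SnPP, beside 0.016, -0.004 and 0.009 over all genes tested. The 3 comparisons share their DMSO libraries and are not independent of each other. A test for any difference among the 4 groups called 3 of the 10 genes, GADD45A (adjusted p 0.00263), ZMAT3 (0.0349) and TP53INP1 (0.0484), against 7.18% of all genes. Of 23 alternatives, 10 lost the ZMAT3 call and 12 the TP53INP1 call. ZMAT3 was lost without DMSO replicate 2, SnPP replicate 3 or any HPPE or ZnPP library (adjusted p 0.0623 to 0.137). TP53INP1 was lost without DMSO replicate 1 or 2, any HPPE library, ZnPP replicate 2 or 3, or SnPP replicate 3 (0.0695 to 0.157).

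**Figure D1:**
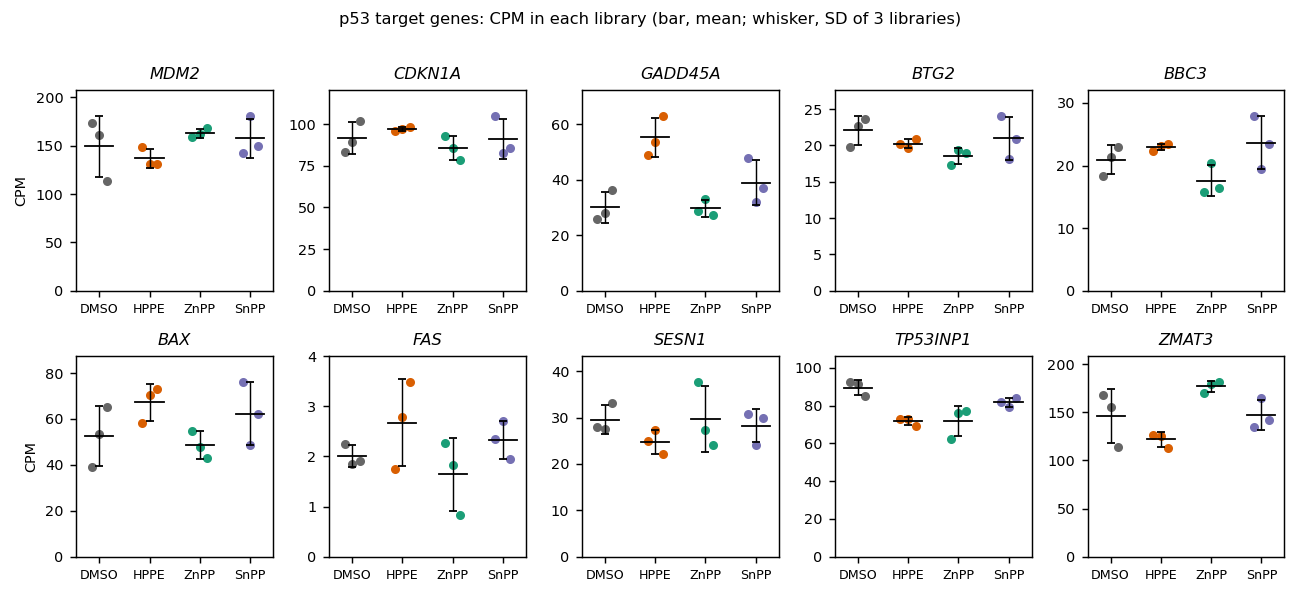
CPM of the 10 p53 target genes in each of the 12 libraries, by group, with replicates 1 to 3 from left to right; the bar is the mean and the whisker the SD of 3 libraries, and each axis starts at 0. The 3 HPPE libraries sit above all DMSO libraries for GADD45A and below them for TP53INP1, while MDM2 and CDKN1A overlap between DMSO and every compound.

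MDM2 (ENSG00000135679.25, chromosome 12, 68808172 to 68850686 on the plus strand) was the negative regulator among the 10. Gene positions are from RefSeq on GRCh38, and strands and exon overlaps from GENCODE 29. The MDM2 level was 173.6, 160.8 and 113.6 CPM in DMSO, 148.6, 131.6 and 131.1 CPM with HPPE, 158.9, 161.7 and 168.2 CPM with ZnPP, and 142.5, 180.7 and 149.4 CPM with SnPP. The control libraries spread more widely than any treated group, and the shallow DMSO replicate 3 was the lowest of the 12. The log2 fold change against DMSO was -0.16 ± 0.12 (SE) with HPPE, 0.09 ± 0.12 with ZnPP and 0.04 ± 0.12 with SnPP. The 95% intervals, not adjusted for the number of genes, reached at most 1.07-fold, 1.28-fold and 1.23-fold over DMSO. Exons of other genes, among them that of carboxypeptidase M on the opposite strand, cover 10.2% of the MDM2 exon bases, and the sources used here do not state whether counting used strand. The overlapped share was 8.93% in FAS, 7.09% in SESN1, 4.91% in BBC3 and 4.79% in CDKN1A, and 0 in the other 5 genes.

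CDKN1A (ENSG00000124762.14, chromosome 6, 36676463 to 36687332, plus strand) encodes p21, the inhibitor of cyclin-dependent kinases through which p53 holds cells in G1 phase. It read 83.2, 89.1 and 102.1 CPM in DMSO and 95.7, 97.3 and 98.5 CPM with HPPE. Values were 92.6, 85.6 and 78.3 CPM with ZnPP and 104.8, 82.7 and 85.4 CPM with SnPP. All 3 treated groups overlapped the control range. The log2 fold change was 0.11 ± 0.10 with HPPE (95% interval -0.10 to 0.32, adjusted p 0.595), -0.09 ± 0.10 with ZnPP (-0.31 to 0.13, 0.657) and 0.02 ± 0.10 with SnPP (-0.19 to 0.23, 0.96). On the linear scale the upper ends of these intervals were 1.25-fold, 1.09-fold and 1.17-fold.

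GADD45A (ENSG00000116717.13, chromosome 1, 67685201 to 67688334, plus strand), a small stress protein that binds p21 and PCNA and acts in growth arrest and DNA repair, was the 1 gene of the 10 that rose. It stood at 25.8, 28.1 and 36.4 CPM in DMSO and at 49.1, 53.7 and 63.0 CPM with HPPE, so that every HPPE library lay above every control library. With ZnPP it was at 28.6, 33.2 and 27.2 CPM, within the control range, and with SnPP at 47.9, 32.2 and 37.0 CPM, with 2 of the 3 libraries above that range. The log2 fold change with HPPE was 0.93 ± 0.15, a 1.91-fold increase (95% interval 1.52 to 2.40), with an adjusted p of 0.00164. It was 0.07 ± 0.17 with ZnPP (adjusted p 0.864) and 0.45 ± 0.15 with SnPP (0.163). The increase with HPPE was called in all 24 alternative fits, and with any 1 library left out the log2 fold change stayed between 0.83 and 1.02. The GADD45A transcript is shorter than most (1496 bases against a median of 3327), and HPPE libraries ran lower on the length trend. After correction of each library for length and GC content the log2 fold change was 0.77 (adjusted p 8.87e-06). With SnPP the gene passed the test without SnPP replicate 2 (log2 fold change 0.58, adjusted p 0.028), and 3 other alternatives called it too, while without SnPP replicate 1 it was 0.28 (0.413).

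BTG2, an antiproliferative protein that binds deadenylases, ranged from 19.8 to 23.6 CPM in DMSO, 19.7 to 20.9 with HPPE, 17.3 to 19.4 with ZnPP and 18.1 to 24.0 with SnPP. All 3 ZnPP libraries lay below the lowest control library by a narrow margin, and the log2 fold change there was -0.20 ± 0.14 (adjusted p 0.448).

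The 3 cell death genes did not pass the test with any compound. BBC3 encodes PUMA, a BH3-only protein that frees BAX, and BAX permeabilizes the outer mitochondrial membrane. BBC3 was at 18.4, 21.4 and 23.0 CPM in DMSO and at 22.4, 23.1 and 23.4 CPM with HPPE. BAX was at 39.0, 53.6 and 65.1 CPM in DMSO, 58.2, 70.4 and 73.1 with HPPE, 55.0, 47.8 and 42.8 with ZnPP and 76.1, 48.7 and 62.3 with SnPP. The BAX groups overlapped in each comparison with DMSO, and the control libraries alone spread 39.0 to 65.1. The log2 fold change of BAX was 0.42 ± 0.17 with HPPE (95% interval 0.06 to 0.78, adjusted p 0.211), -0.09 ± 0.18 with ZnPP and 0.32 ± 0.17 with SnPP. With HPPE 2 alternatives called it, 1 of them the fit without a filter (adjusted p 0.0161). The other takes the main axis of spread among libraries of a group as a term (0.000676), here the library axis. That axis was computed from these same counts, so it takes out spread against which the test is judged. Calls under it are no separate support. Without DMSO replicate 1 the change was 0.21 (0.751), and with the length and GC correction 0.24 (0.105). FAS, a death receptor at the cell surface, was near the limit of these libraries at 0.8 to 3.5 CPM, with 3 counts in both shallow libraries. Its log2 fold change was 0.30 ± 0.35 with HPPE, -0.53 ± 0.40 with ZnPP and 0.21 ± 0.34 with SnPP, and no change of FAS was detectable at this depth.

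TP53INP1 (ENSG00000164938.14), which promotes autophagy and helps p53 become phosphorylated under stress, was the 1 gene of the 10 that fell. It was at 92.5, 91.3 and 84.9 CPM in DMSO, 73.2, 72.9 and 69.3 CPM with HPPE, 62.5, 76.0 and 77.0 CPM with ZnPP, and 81.9, 79.4 and 84.2 CPM with SnPP. All 9 treated libraries lay below all 3 control libraries, which served all 3 comparisons. The log2 fold change was -0.33 ± 0.08 with HPPE (adjusted p 0.0293), -0.29 ± 0.08 with ZnPP (0.0754) and -0.14 ± 0.08 with SnPP (0.431). In linear terms the level with HPPE was 0.80 of the control (95% interval 0.71 to 0.90). This call was lost in 8 of 24 alternatives, while the log2 fold change stayed between -0.34 and -0.30 in those 8. Without DMSO replicate 1 the adjusted p was 0.162, without DMSO replicate 2 it was 0.159, and without HPPE replicate 1, 2 or 3 it was 0.0745, 0.109 and 0.132. With ZnPP the gene was called in 3 alternatives, among them the fit without SnPP replicate 2 (0.0466), and without DMSO replicate 2 the adjusted p was 0.25.

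SESN1, a sestrin that restrains mTORC1 and oxidative damage, ranged from 27.5 to 33.2 CPM in DMSO and from 22.2 to 27.3 CPM with HPPE. The groups narrowly failed to overlap, and the log2 fold change was -0.19 ± 0.15 (adjusted p 0.523). With ZnPP the 3 libraries spread from 24.1 to 37.6 CPM and with SnPP from 24.2 to 30.7 CPM.

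ZMAT3 (ENSG00000172667.11, chromosome 3, 179017223 to 179072513, minus strand), a zinc-finger RNA-binding protein that controls splicing downstream of p53, was at 168.1, 155.1 and 114.2 CPM in DMSO. It was lower in the HPPE libraries, at 126.8, 125.5 and 113.0 CPM, than in the ZnPP libraries, at 170.2, 178.9 and 181.4 CPM, with SnPP between at 134.8, 165.0 and 141.9 CPM. Neither difference from DMSO passed the test, at -0.29 ± 0.11 with HPPE (adjusted p 0.182) and 0.25 ± 0.11 with ZnPP (0.243). The HPPE difference was called without DMSO replicate 3 (-0.40, adjusted p 0.0149) and in 3 other alternatives, and was -0.18 (0.655) without DMSO replicate 1.

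**Figure D2:**
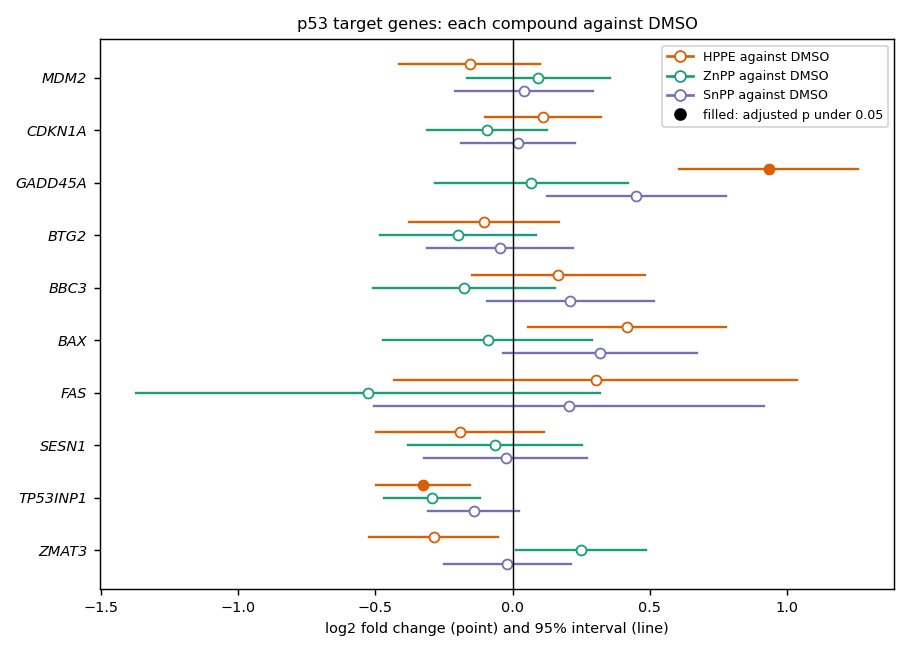
log2 fold change of each p53 target gene against DMSO with its 95% interval, by compound; filled points passed the test. GADD45A with HPPE at 0.93 and TP53INP1 with HPPE at -0.33 are the 2 filled points of 30, and the intervals of CDKN1A and MDM2 cross 0 for all 3 compounds.

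The compounds were next set against each other at the same dose and time, in 3 pairs and 30 gene comparisons. HPPE differed from ZnPP in GADD45A, which was higher, and ZMAT3, which was lower (12.7% of all genes were called in this pair, 6.44% higher and 6.26% lower). The log2 difference of GADD45A was 0.87 ± 0.15 (95% interval 0.54 to 1.19, adjusted p 0.00405), and the groups did not overlap. That held for 7 of the 10 genes in this pair and for 36.7% of all genes, and 5 of the 10 had an unadjusted p under 0.05, against 32.2% of all genes. This call was lost without ZnPP replicate 3 (0.77, adjusted p 0.0554), and the correction for length and GC content brought the difference down to 0.56 (0.000665). For ZMAT3 the log2 difference was -0.54 ± 0.11 (-0.77 to -0.30, adjusted p 0.0102). It fell short of the threshold without HPPE replicate 2 (0.0558), HPPE replicate 3 (0.0584) or ZnPP replicate 3 (0.0751). The ZMAT3 transcript is long at 9406 bases, and after the correction for length and GC content the difference was -0.32 (adjusted p 0.00161). BAX missed the threshold at 0.51 ± 0.17 (adjusted p 0.0595) with no overlap between the groups, and 8 of 24 alternatives called it, among them those without DMSO replicate 1 (0.0386), DMSO replicate 3 (0.0478), SnPP replicate 1 (0.0328) or SnPP replicate 2 (0.0264). Corrected for length and GC content it was 0.19 (0.152), and without ZnPP replicate 3 it was 0.42 (0.288). CDKN1A differed by 0.21 ± 0.10 (-0.01 to 0.42, adjusted p 0.169) and MDM2 by -0.25 ± 0.12 (-0.51 to 0.01, 0.166). Both were called in a fit of the compared groups only (adjusted p 0.0488 and 0.0134) and in the fit with the library axis (0.00729 and 0.00051). After the length and GC correction CDKN1A stood at 0.01 (adjusted p 0.944) and the MDM2 difference turned to 0.06 (0.472).

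Between HPPE and SnPP 0 of the 10 genes were called by edgeR or DESeq2, where 1.45% of all genes were called. An unadjusted p under 0.05 was reached by 3 of the 10 and by 13.1% of all genes, and the groups did not overlap in 3 of the 10 and in 19.9% of all genes. GADD45A was higher with HPPE in all 3 libraries, by 0.48 ± 0.14 (95% interval 0.19 to 0.78, adjusted p 0.117), and passed the test without SnPP replicate 1 (0.65, 0.012), while without SnPP replicate 2 it was 0.35 (0.315). TP53INP1 was lower by 0.18 on the log2 scale (-0.35 to -0.02, adjusted p 0.324). ZMAT3 was lower too, at -0.27 (-0.50 to -0.04, adjusted p 0.296). With the length and GC correction GADD45A (adjusted p 0.0088) and ZMAT3 (0.0251) were called in this pair.

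ZnPP and SnPP, which differ in the metal, were not told apart by any of the 10 genes (0 called by edgeR or DESeq2, and 0.00611% of all genes, or 1 gene). An unadjusted p under 0.05 was reached by 4 of the 10 and by 13.3% of all genes, and the groups did not overlap in 2 of the 10 and in 12.9% of all genes. The log2 difference of ZnPP from SnPP was -0.38 ± 0.15 for GADD45A (95% interval -0.71 to -0.06), -0.41 ± 0.17 for BAX (-0.77 to -0.05), -0.39 ± 0.15 for BBC3 (-0.70 to -0.08) and 0.27 ± 0.11 for ZMAT3 (0.04 to 0.50), each with an adjusted p of 0.353. The intervals leave room for a difference of this size, so the 2 porphyrins were not shown to act alike. These 4 genes passed the test without SnPP replicate 2, with adjusted p of 0.0373, 0.0416, 0.0345 and 0.0406. That library had the highest length correlation of its group (0.52). Without SnPP replicate 1, which had the lowest (-0.54), the differences were -0.21, -0.25, -0.25 and 0.20, each with an adjusted p of 0.922. After the correction for length and GC content they were -0.17, -0.16, -0.11 and 0.09, with adjusted p of 0.427, 0.427, 0.686 and 0.495. CDKN1A differed by -0.11 (-0.32 to 0.10) and MDM2 by 0.05 (-0.20 to 0.31).

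**Figure D3:**
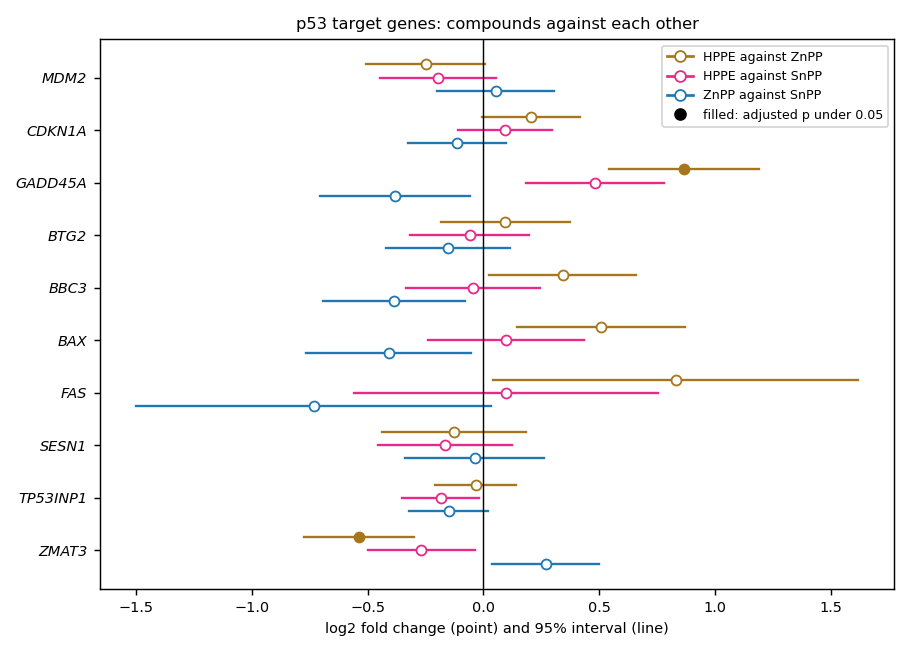
log2 difference of each p53 target gene between compounds at 5 µM and 5 h, with its 95% interval; filled points passed the test. GADD45A (0.87) and ZMAT3 (-0.54) between HPPE and ZnPP are filled, and no point is filled between HPPE and SnPP or between ZnPP and SnPP.

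**Figure D4:**
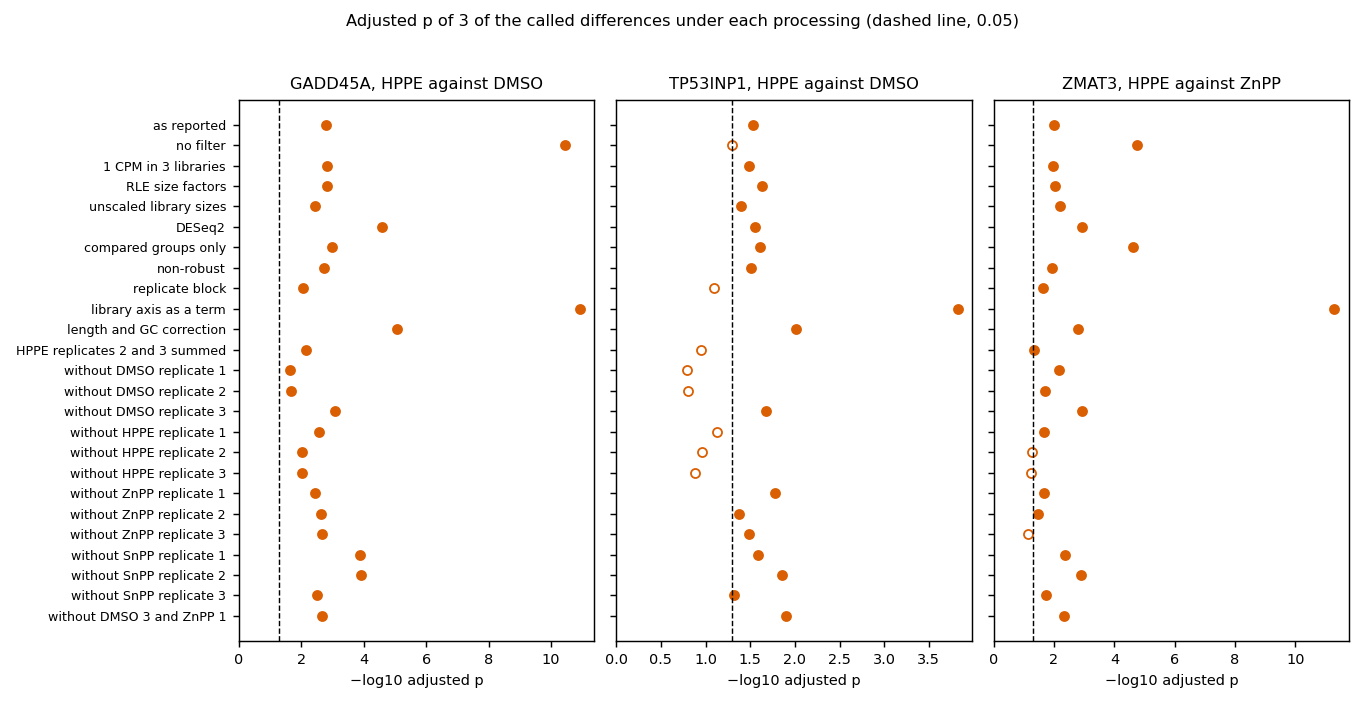
Minus log10 of the adjusted p for the called differences of GADD45A and TP53INP1 (HPPE against DMSO) and ZMAT3 (HPPE against ZnPP), as reported and under 24 alternatives; filled points lie past the dashed line at 0.05, and the 3 panels have their own horizontal scales. GADD45A stays past the line in all 24, TP53INP1 in 16 and ZMAT3 in 21.

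Regulators of p53, among them MDM4 and PPM1D, gave 0 of 11 called genes with any compound by edgeR, beside the shares over all genes given above. The p53 protein, at whose level most of this control acts, was not measured. MDM4, the partner of MDM2 that masks the p53 activation domain, was 0.14 ± 0.11 with HPPE, 0.34 ± 0.11 with ZnPP (adjusted p 0.101) and 0.24 ± 0.11 with SnPP (0.294). PPM1D, the phosphatase that switches p53 signaling off, was 0.10 ± 0.09, 0.06 ± 0.09 and -0.08 ± 0.09.

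A wider list of 66 other p53 targets, of which 53 could be tested, was read by role. With HPPE 4 rose and 1 fell, with ZnPP 1 rose and 1 fell, and with SnPP 3 rose and 1 fell. Those are 5, 2 and 4 of 53 genes, set beside 4.04%, 2.25% and 2.28% of all genes. The median log2 fold change was 0.013, -0.026 and 0.012, next to 0.016, -0.004 and 0.009 over all genes. Among 14 tested cell death genes, 5 of DNA repair and 8 of metabolism, 0 were called with any compound against DMSO by edgeR. PMAIP1, which encodes the BH3-only protein NOXA, was at 16.7 ± 4.52 CPM in DMSO (SD, n = 3) and at 22.7 ± 1.68 CPM with HPPE (log2 fold change 0.55 ± 0.20, adjusted p 0.152). TNFRSF10B, a receptor for TRAIL, had a log2 fold change of 0.12 ± 0.08 with HPPE. All 5 DNA repair genes had negative values with HPPE, while DDB2 and ASCC3 were positive with ZnPP (0.01 and 0.115) and DDB2 with SnPP (0.082). POLH, a translesion polymerase, was at -0.25 ± 0.08 (adjusted p 0.102), RRM2B, a ribonucleotide reductase subunit, at -0.25 ± 0.09 (0.156), XPC at -0.20 ± 0.09, DDB2 at -0.15 ± 0.13 and ASCC3 at -0.10 ± 0.11. POLH and RRM2B lay below the control range with all 3 compounds. Over all genes 21.4%, 22% and 17.9% did not overlap DMSO, in either direction, with HPPE, ZnPP and SnPP.

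The targets that rose were PLK2, GDF15, LIF and KITLG. PLK2, a polo-like kinase, was at 13.0 ± 0.92 CPM in DMSO (SD, n = 3), 27.1 ± 1.76 with HPPE, 19.3 ± 3.37 with ZnPP and 21.2 ± 0.74 with SnPP, and all 9 treated libraries lay above all 3 controls. Its log2 fold change was 1.10 ± 0.14 (adjusted p 0.000101), 0.64 ± 0.15 (0.0285) and 0.73 ± 0.14 (0.00609). The ZnPP call was lost without DMSO replicate 1, DMSO replicate 2 or ZnPP replicate 2 (adjusted p 0.086 to 0.172), and the SnPP call without DMSO replicate 1 or 2 (0.0525 to 0.0803). GDF15, a secreted stress cytokine, was at 5.8, 5.0 and 10.8 CPM in DMSO, 18.3, 19.3 and 19.0 with HPPE, 13.6, 8.8 and 10.7 with ZnPP and 20.3, 12.3 and 16.6 with SnPP. Every HPPE and SnPP library lay above the control range, with log2 fold changes of 1.63 ± 0.23 (adjusted p 0.000348) and 1.42 ± 0.23 (0.00176). LIF, a cytokine of the interleukin-6 family, was low, at 0.13, 1.58 and 1.28 CPM in DMSO against 5.1, 4.2 and 5.4 with HPPE and 6.2, 5.1 and 7.7 with SnPP. Its log2 fold change was 2.39 ± 0.46 with HPPE (adjusted p 0.00532) and 2.77 ± 0.43 with SnPP (0.0012). With ZnPP the change of LIF was 1.68 ± 0.51 and was not called (0.0907). DMSO replicates 1 and 3 were under the floor of 3 counts (0.40 and 1.91 CPM in these libraries), so the size of the change is poorly set. It ran from 1.64 without DMSO replicate 1 to 3.77 without DMSO replicate 2 with HPPE, and from 2.02 to 4.15 with SnPP. KITLG, the ligand of the receptor KIT, rose by 0.53 ± 0.11 with HPPE (0.00754). It was not called with the other compounds, at 0.42 ± 0.11 with ZnPP (0.052) and 0.26 ± 0.11 with SnPP (0.262).

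The targets that fell were RAP2B with HPPE, ABHD4 with ZnPP and CCNG1 with SnPP. RAP2B, a small GTPase, changed by -0.62 ± 0.16 (adjusted p 0.0365), and the call was lost without DMSO replicate 1 or 2, any HPPE library, ZnPP replicate 2 or SnPP replicate 3 (0.053 to 0.337). ABHD4, a lipid hydrolase, changed by -0.82 ± 0.21 (0.0475) and kept its call in 9 of 24 alternatives. It was lost without any HPPE or ZnPP library, DMSO replicate 2 or 3, or SnPP replicate 3 (0.0536 to 0.234). CCNG1, cyclin G1, was at 89.3, 88.6 and 99.5 CPM in DMSO and 74.1, 68.2 and 69.2 CPM with SnPP, a change of -0.37 ± 0.08 (0.0198) that was lost without DMSO replicate 1 or 2 or SnPP replicate 3 (0.063 to 0.0998). CCNG1 lay below the control range with the other compounds too, at -0.21 ± 0.08 with HPPE (0.18) and -0.21 ± 0.09 with ZnPP (0.206).

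**Figure D5:**
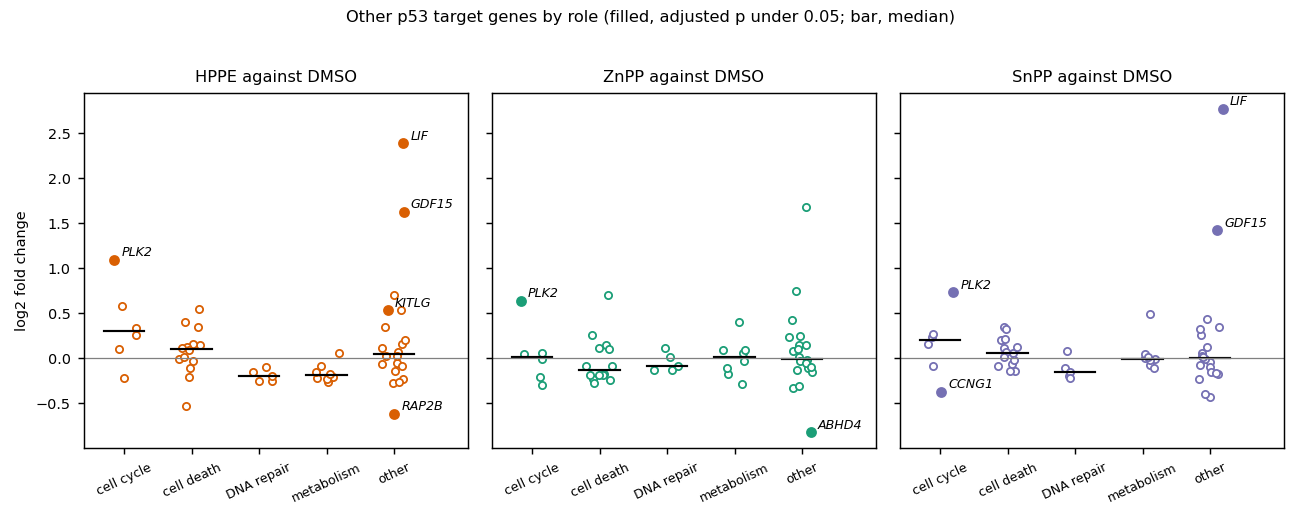
log2 fold change against DMSO of 53 other p53 target genes by role, 1 panel per compound; open points did not pass the test, filled and named points did, and bars are medians. The named points are PLK2, GDF15, LIF, KITLG and RAP2B with HPPE, PLK2 and ABHD4 with ZnPP, and PLK2, GDF15, LIF and CCNG1 with SnPP.

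Cell cycle genes that p53 lowers through p21 and the DREAM repressor complex were read as the other arm of the response. Of 13 tested, 0 were called with HPPE or SnPP, and BIRC5, which encodes survivin, fell with ZnPP (-0.38 ± 0.10, adjusted p 0.044). The shares called over all genes were 4.04% with HPPE, 2.25% with ZnPP and 2.28% with SnPP. BIRC5 was at 149.4, 145.6 and 162.7 CPM in DMSO and 114.4, 127.3 and 106.0 CPM with ZnPP. That call was lost without any DMSO or HPPE library or ZnPP replicate 1 or 3 (0.0557 to 0.281). The median log2 fold change of the 13 genes was -0.09 with HPPE, -0.17 with ZnPP and -0.13 with SnPP. Over all genes tested it was 0.016, -0.004 and 0.009. Among 13 tested paralogs of the 10 genes, such as SESN2, and beside the same shares over all genes, SESN3 was the 1 called against DMSO. It fell by 0.47 on the log2 scale with SnPP (adjusted p 0.0309), although SnPP libraries at 69.2, 92.1 and 76.8 CPM overlapped DMSO at 118.5, 115.1 and 88.1 CPM, and 10 of 24 alternatives did not call it. These include the fits without DMSO replicate 1 or 2, HPPE replicate 2 or 3, ZnPP replicate 1, or SnPP replicate 1 or 3 (0.05 to 0.198).

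In the BCL2 family, whose members decide between survival and mitochondrial cell death, 11 genes were tested beside BAX and BBC3. Over all genes 1.47% were called lower with HPPE, 0.415% with ZnPP and 0.379% with SnPP. BMF, a BH3-only protein, fell with all 3 compounds. It was at 38.0, 38.3 and 38.9 CPM in DMSO, 21.1, 20.9 and 20.9 with HPPE, 30.1, 30.4 and 27.4 with ZnPP and 25.3, 25.8 and 26.6 with SnPP, with no overlap of any treated group with DMSO. The log2 fold change was -0.87 ± 0.10 (adjusted p 3.24e-05), -0.40 ± 0.10 (0.0426) and -0.56 ± 0.09 (0.00213). The ZnPP call was kept in 8 of 24 alternatives, and was lost without any DMSO, HPPE or ZnPP library or SnPP replicate 3 (0.0568 to 0.277). With HPPE the survival protein BCL2 also fell (-0.47 ± 0.11, 0.0163), a call lost without DMSO replicate 1 or 2 or HPPE replicate 2 or 3 (0.0706 to 0.141). BCL2L11, which encodes BIM, fell too (-0.33 ± 0.09, 0.0469) and was not called in 14 of 24 alternatives, among them those without DMSO replicate 1 or 2, any HPPE library, ZnPP replicate 2 or 3, or SnPP replicate 3 (0.0507 to 0.233). BCL2L11 was at -0.27 ± 0.09 with ZnPP (0.131) and -0.33 ± 0.09 with SnPP (0.0602), so the value was not particular to HPPE. Neither group overlapped DMSO, which held for 22% and 17.9% of all genes.

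GADD45A, GDF15 and LIF also answer to stress pathways other than p53, so lists of such pathways were read beside them. Of 9 tested immediate early genes, which mitogens and stress switch on within minutes, 5 rose with HPPE, 3 with SnPP and 0 with ZnPP, with medians of 0.76, 0.40 and 0.30. Over all genes 2.57%, 1.9% and 1.84% were called higher, with medians of 0.016, 0.009 and -0.004 in the same order. EGR1, a zinc-finger factor, rose by 1.32 ± 0.14 with HPPE (adjusted p 1.77e-05). Some of these calls were lost when 1 library was left out. That of JUN with SnPP was lost in 14 of 24 alternatives, 9 of them with 1 library left out (0.0589 to 0.201). DUSP1 lost its SnPP call without DMSO replicate 1 or 2 or SnPP replicate 1 or 3 (0.0629 to 0.112), and EGR1 without DMSO replicate 1 or SnPP replicate 3 (0.10 to 0.117). EGR3 lost its HPPE call without DMSO replicate 1 or HPPE replicate 2 or 3 (0.0744 to 0.22). A list of 12 genes held ATF4, the factor of amino acid and endoplasmic reticulum stress, and targets of it. Of these SLC7A11 alone was called, with HPPE (3.51 ± 0.27, 4.01e-07). Shares called over all genes in either direction were 4.04% with HPPE, 2.25% with ZnPP and 2.28% with SnPP. SLC7A11, the cystine transporter, is also a known NRF2 target. Whether the GADD45A values follow from any of these pathways was not tested.

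The genes whose pattern over the 12 libraries was most like CDKN1A and MDM2 were looked up among 10435 tested genes with a mean of at least 10 CPM. For CDKN1A the 5 most alike were LY6E (Pearson r 0.957), NME4 (0.955), COMMD4 (0.954), QTRT1 (0.953) and NDUFS3 (0.952). For MDM2 4 of the 5 were MAVS, which had the highest r, RNF168 (0.97), TNRC6C (0.969) and CHST3 (0.964). None of the other 9 of the 10 genes stood in either list. The lists sort by transcript length, with 1419 to 4204 bases for the CDKN1A list and 5347 to 11714 for the 4 genes named for MDM2, and CDKN1A and MDM2 themselves at 2267 and 12633. These r values describe 12 libraries that share the length trend given above.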

How the data were processed

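mRNA libraries were made with an MGI kit as the labels state. Unnormalized read counts per Ensembl gene were deposited. Per the submitters' processing notes, the tools were fastp 0.21.1, STAR 2.7.7a and featureCounts on GRCh38; the annotation and the use of strand are not given in the sources used here. The 10 genes, the gene lists, the tests and the rule for named genes (up to 4 called genes per list, by size of change, with MDM4 and PPM1D) were chosen with earlier results of these data known. KITLG, TNFRSF10B, the DNA repair genes and PMAIP1 were added after their values were seen. Some genes of the rule are not reported here. CPM and tests came from edgeR 4.0.16 in R 4.3.3 (filterByExpr, TMM, 1 model of 12 libraries with a mean per group, robust glmQLFit, two-sided glmQLFTest), with Benjamini-Hochberg adjustment over 16366 genes, which held 99.6% of counts. Errors are SE from the F statistic. Alternatives were other filters, scalings, fits and DESeq2 1.42.0, and each library left out; leaving out both shallow libraries was added after seeing the data. Lengths and overlaps came from GENCODE 29. Depth limits precision mainly in DMSO replicate 3 and ZnPP replicate 1; a count of 3 was the floor and covers counting error only.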

Additional observations from a re-analysis of the deposited data

How the results depend on the processing

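Called genes, among the 10 and among all genes, numbered 2 and 662 for HPPE against DMSO, 0 and 369 for ZnPP against DMSO, 0 and 373 for SnPP against DMSO, 2 and 2078 for HPPE against ZnPP, 0 and 238 for HPPE against SnPP, 0 and 1 for ZnPP against SnPP, 3 and 1175 for any difference among the 4 groups. For the settings named next, a count is given only where it differed from these by more than 1.5-fold, or moved to or from 0. Counts and settings left out stayed within that bound. The library axis was computed from these same counts, so added calls under it are no separate support. With a library axis as a term, calls among the 10 genes were 4 for HPPE against DMSO, 2 for ZnPP against DMSO, 2 for SnPP against DMSO, 6 for HPPE against ZnPP, 4 for HPPE against SnPP, 4 for ZnPP against SnPP, 6 for any difference among the 4 groups and calls among all genes were 2672 for HPPE against DMSO, 4158 for ZnPP against DMSO, 2207 for SnPP against DMSO, 5698 for HPPE against ZnPP, 2594 for HPPE against SnPP, 2350 for ZnPP against SnPP, 6948 for any difference among the 4 groups. With the length and GC correction, calls among the 10 genes were 1 for ZnPP against DMSO, 1 for SnPP against DMSO, 2 for HPPE against SnPP and calls among all genes were 1239 for HPPE against DMSO, 885 for ZnPP against DMSO, 829 for SnPP against DMSO, 498 for HPPE against SnPP, 22 for ZnPP against SnPP, 2235 for any difference among the 4 groups. With HPPE replicates 2 and 3 summed, calls among the 10 genes were 1 for HPPE against DMSO, 1 for any difference among the 4 groups and calls among all genes were 384 for HPPE against DMSO, 458 for HPPE against ZnPP, 119 for HPPE against SnPP, 513 for any difference among the 4 groups. Without a filter, calls among the 10 genes were 1 for SnPP against DMSO, 1 for HPPE against SnPP, 1 for ZnPP against SnPP and calls among all genes were 904 for ZnPP against DMSO, 3186 for HPPE against ZnPP, 420 for HPPE against SnPP, 270 for ZnPP against SnPP, 3109 for any difference among the 4 groups. With the compared groups only, calls among the 10 genes were 5 for HPPE against ZnPP and calls among all genes were 131 for SnPP against DMSO, 4267 for HPPE against ZnPP, 144 for HPPE against SnPP. With the replicate block, calls among the 10 genes were 1 for HPPE against DMSO, 1 for any difference among the 4 groups and calls among all genes were 412 for HPPE against DMSO, 133 for ZnPP against DMSO, 209 for SnPP against DMSO, 758 for HPPE against ZnPP, 139 for HPPE against SnPP, 456 for any difference among the 4 groups. With DMSO replicate 3 and ZnPP replicate 1 left out together, calls among all genes were 183 for ZnPP against DMSO. With DESeq2, calls among all genes were 2 for ZnPP against SnPP. With a filter of 1 CPM in 3 libraries, calls among all genes were 2 for ZnPP against SnPP. Leaving out 1 library at a time gave 1 to 3 and 284 to 1106 for HPPE against DMSO, 0 to 1 and 72 to 750 for ZnPP against DMSO, 0 to 1 and 146 to 627 for SnPP against DMSO, 0 to 3 and 173 to 3517 for HPPE against ZnPP, 0 to 1 and 91 to 342 for HPPE against SnPP, 0 to 4 and 1 to 1453 for ZnPP against SnPP, 1 to 5 and 425 to 3341 for any difference among the 4 groups.

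Differences that were not called changed sign under some settings, the largest of them MDM2 between HPPE and ZnPP (-0.25), with these log2 fold changes: With the length and GC correction, 0.024 for CDKN1A, ZnPP against DMSO, -0.029 for CDKN1A, SnPP against DMSO, 0.053 for CDKN1A, ZnPP against SnPP, -0.103 for MDM2, ZnPP against DMSO, 0.064 for MDM2, HPPE against ZnPP, -0.166 for MDM2, ZnPP against SnPP, 0.055 for BAX, ZnPP against DMSO, 0.021 for SESN1, SnPP against DMSO, 0.021 for ZMAT3, SnPP against DMSO, -0.059 for BTG2, HPPE against ZnPP, -0.011 for FAS, HPPE against SnPP. With a library axis as a term, -0.015 for CDKN1A, SnPP against DMSO. With DMSO replicate 3 and ZnPP replicate 1 left out together, -0.017 for MDM2, ZnPP against DMSO, -0.083 for MDM2, SnPP against DMSO, 0.025 for SESN1, SnPP against DMSO. With unscaled library sizes, 0.005 for SESN1, SnPP against DMSO, 0.006 for ZMAT3, SnPP against DMSO, 0.001 for TP53INP1, HPPE against ZnPP. Leaving out 1 library at a time, those that changed sign ran over -0.057 to 0.263 for BAX, HPPE against SnPP, -0.297 to 0.015 for BAX, ZnPP against DMSO, -0.169 to 0.092 for BBC3, HPPE against SnPP, -0.159 to 0.046 for BTG2, HPPE against SnPP, -0.153 to 0.053 for BTG2, SnPP against DMSO, -0.092 to 0.085 for CDKN1A, SnPP against DMSO, -0.038 to 0.357 for FAS, HPPE against SnPP, -0.055 to 0.159 for GADD45A, ZnPP against DMSO, -0.086 to 0.154 for MDM2, SnPP against DMSO, -0.035 to 0.204 for MDM2, ZnPP against DMSO, -0.022 to 0.169 for MDM2, ZnPP against SnPP, -0.087 to 0.079 for SESN1, SnPP against DMSO, -0.166 to 0.065 for SESN1, ZnPP against DMSO, -0.152 to 0.092 for SESN1, ZnPP against SnPP, -0.09 to 0.009 for TP53INP1, HPPE against ZnPP, -0.133 to 0.088 for ZMAT3, SnPP against DMSO. The cause of these changes was not tested. Correlations between the deviations of same-numbered libraries ran from -0.68 to 0.52. Of 3 HPPE libraries, 2 correlated best with the DMSO library of their own number, against 0 or 1 of 3 in the other pairs. The labels do not say that a number marks a shared day or batch, and these correlations cannot settle it. The replicate block therefore describes shared numbers only. Among other scalings, unscaled library sizes moved the median of all genes most, by -0.044 on the log2 scale for ZnPP against SnPP. The length and GC correction moved it most for HPPE against ZnPP, by -0.06.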
